A study of Mus musculus with 12 samples.

Results

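Mitf, Aqp5, Hbegf, Celsr2, Foxo1, Foxo3, Casp2, Arf4, Ryk and Adcy6 are 10 genes that have been reported, in other cells and tissues, as targets of the microRNA miR-96 or of its cluster. They were followed here in a mouse cell line that received a siRNA form of miR-96. The members were taken by gene symbol from the platform annotation, with every probe set that carried that symbol alone, which gave 10 of 18193 genes and 23 of 45037 probe sets. A probe set is a group of short array probes that reads the same transcript. A further 1 probe set of Foxo3 carries a second symbol and was not used.

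The cells were C3H10T1/2, an established mouse embryonic line with mesenchymal properties, and no group carried a genetic change according to the labels. The 12 arrays form 4 groups of 3. The over-expression experiment set siRNA-140, a miR-140 mimic, against siRNA-96 as its control, and the suppression experiment set LNA-antimicroRNA-140 (abbreviated anti-miR-140) against LNA-antimicroRNA-449 (anti-miR-449) as its control. An LNA is a modified oligonucleotide that binds a microRNA and blocks it. None of the 4 groups is an untreated control, so siRNA-96 can be read only against siRNA-140, and a gene that miR-96 lowers and a gene that miR-140 raises cannot be told apart in that comparison. Mature microRNAs are not read by these arrays, and neither the oligonucleotide sequences nor the doses, times and delivery are given in the sources used here. Nothing in the labels says that the replicates were separate cultures, so a p-value here speaks of the spread among these arrays, which may be technical.

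A microRNA guides a silencing complex to messenger RNAs, mostly through pairing of its seed, the bases near its 5′ end, with sites in the 3′ untranslated region. A paired transcript is translated less and often degraded, and only the loss of transcript can be seen on an expression array. miR-96 is transcribed together with miR-182 and miR-183 and is best known from hair cells of the inner ear and from photoreceptors, where its loss or mutation disturbs sensory cells. The 10 genes have varied roles. Mitf, Foxo1 and Foxo3 encode transcription factors, Hbegf a ligand, Ryk and Celsr2 receptors of the cell surface, Aqp5 a water channel, Adcy6 and Casp2 enzymes, and Arf4 a GTPase of membrane traffic.

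The mature sequences are shown because the seed decides which transcripts a microRNA can pair with. They were read from RefSeq (GRCm38.p6), 5′ to 3′, with the seed (bases 2 to 8) in capitals. miR-96-5p lies at chr6:30169506-30169528 on the minus strand.
miR-96-5p: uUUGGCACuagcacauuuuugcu
miR-1271-5p: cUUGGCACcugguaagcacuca
miR-182-5p: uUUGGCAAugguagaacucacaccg
miR-183-5p: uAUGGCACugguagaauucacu
miR-140-3p: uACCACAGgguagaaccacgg
miR-449a-5p: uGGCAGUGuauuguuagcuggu

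miR-1271-5p has the same 7-base seed as miR-96-5p, and no other of 1679 mature mouse microRNAs in the table does. miR-182-5p shares bases 2 to 7, and its seed has 6 of 7 bases in common with that of miR-96-5p, as does the seed of miR-183-5p. The seed of miR-140-3p matches it at 2 positions and that of miR-449a-5p at 0. The miR-140-5p sequence was not at hand and is not shown. Nothing in the labels says which strand of miR-140 siRNA-140 copies or anti-miR-140 blocks. A site for the miR-96-5p seed in a transcript reads GUGCCAA. Transcript sequences were not analysed here, so it is not stated which of the 10 genes hold such a site.

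Labels and profiles parted within the siRNA experiment. The library labelled siRNA-140 replicate 3 was most like siRNA-96 replicate 2 (Pearson r = 0.9976 over all probe sets), and the library labelled siRNA-96 replicate 1 and siRNA-140 replicate 1 were each the most like the other (r = 0.9952). Usp18, an interferon-induced gene, showed the same split: it read 3.85, 4.67 and 8.01 in the 3 siRNA-140 replicates and 4.65, 8.92 and 9.30 in the 3 siRNA-96 replicates (log2). Vnn1 showed the opposite pattern, with 10.37, 10.51 and 5.52, then 10.04, 5.66 and 5.27. Each comparison is therefore given for all arrays as labelled and again with both of the crossing arrays, siRNA-140 replicate 3 and siRNA-96 replicate 1, left out. These 2 arrays were left out with their values known, so the adjusted p-values of the reduced fit are not independent evidence. On the 4 siRNA arrays that remain, siRNA-140 goes with low Usp18 and high Vnn1, and siRNA-96 with the reverse. In the reduced fit the oligonucleotide and this split therefore cannot be told apart, and a value called lower with siRNA-96 there names the labels only. Array medians lay between 3.95 and 4.02 in the siRNA experiment and between 4.32 and 4.38 in the anti-miR experiment, so experiment and scale cannot be told apart. The cells read as mesenchymal: 8 of 9 measured mesenchymal markers were at or above the median of all probe sets, against 2 of 8 epithelial, 1 of 7 melanocyte and 1 of 6 endothelial markers, 5 of 7 immune and 3 of 6 muscle or neural markers.

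Mitf encodes the master transcription factor of melanocytes, which also acts in retinal pigment epithelium and osteoclasts. Its brighter probe set (1455214_at) read 5.59, 5.52 and 4.03 on the siRNA-140 arrays (replicates 1, 2 and 3, in that order throughout) and 5.34, 3.81 and 3.46 on the siRNA-96 arrays. siRNA-140 replicate 3 and siRNA-96 replicates 2 and 3 were the low arrays, and the labelled groups overlapped. The group means were 5.05 ± 0.88 (SD, n = 3) and 4.20 ± 1.0 (n = 3), a log2 difference, siRNA-140 minus siRNA-96, of 0.84 ± 0.43 (SE; 95% interval -0.08 to 1.77; limma adjusted p = 0.88). Without the 2 arrays the difference was 1.92 ± 0.15 (interval 1.61 to 2.23), or 3.78-fold lower with siRNA-96, with a limma adjusted p of 3.93e-06 on 10 arrays and 0.00013 on the 4 siRNA arrays alone. The dim Mitf probe set (1422025_at), below the median of all probe sets on average, lay between 2.28 and 2.78 on the siRNA arrays and differed by -0.21 ± 0.14 in the full fit and -0.12 ± 0.17 in the reduced fit. The probe sets of Mitf thus disagree, and the values rest on the brighter.

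Aqp5 encodes a water channel of the apical membrane of glands, lung and cornea. Its single probe set (1418818_at) read 9.51, 9.62 and 8.11 in the siRNA-140 replicates and 9.77, 7.98 and 7.96 in the siRNA-96 replicates. The same 3 arrays were low as for Mitf, and the highest siRNA value belonged to siRNA-96 replicate 1. The labelled difference was 0.51 ± 0.43 (interval -0.42 to 1.44; limma adjusted p = 0.889). In the reduced fit it was 1.59 ± 0.12 (interval 1.33 to 1.86), or 3.02-fold lower with siRNA-96, with an adjusted p by limma of 4.17e-06 on 10 arrays and 0.000183 on 4. Of the 8 epithelial markers, the keratin gene Krt14 split the same way, with 3.69, 4.41 and 2.69 in the siRNA-140 replicates and 3.93, 2.73 and 2.39 in the siRNA-96 replicates, and it was called in the reduced fit (1.49 ± 0.19, limma adjusted p = 0.000327). This Krt14 probe set is below the median of all probe sets, and its other 2 differed by 0.05 and 0.54 there. The mean of the epithelial list ranged from 3.69 to 3.72 over the siRNA-140 arrays and from 3.51 to 3.81 over the siRNA-96 arrays. Fn1 of the mesenchymal and Csf1r of the immune list were lower with siRNA-140 in that fit, Tek of the endothelial list was higher, and no melanocyte, muscle or neural marker was called. The other 2 Csf1r probe sets differed by -0.07 and 0.25 there. The part of these markers in the Aqp5 result was not tested.

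**Figure D1:**
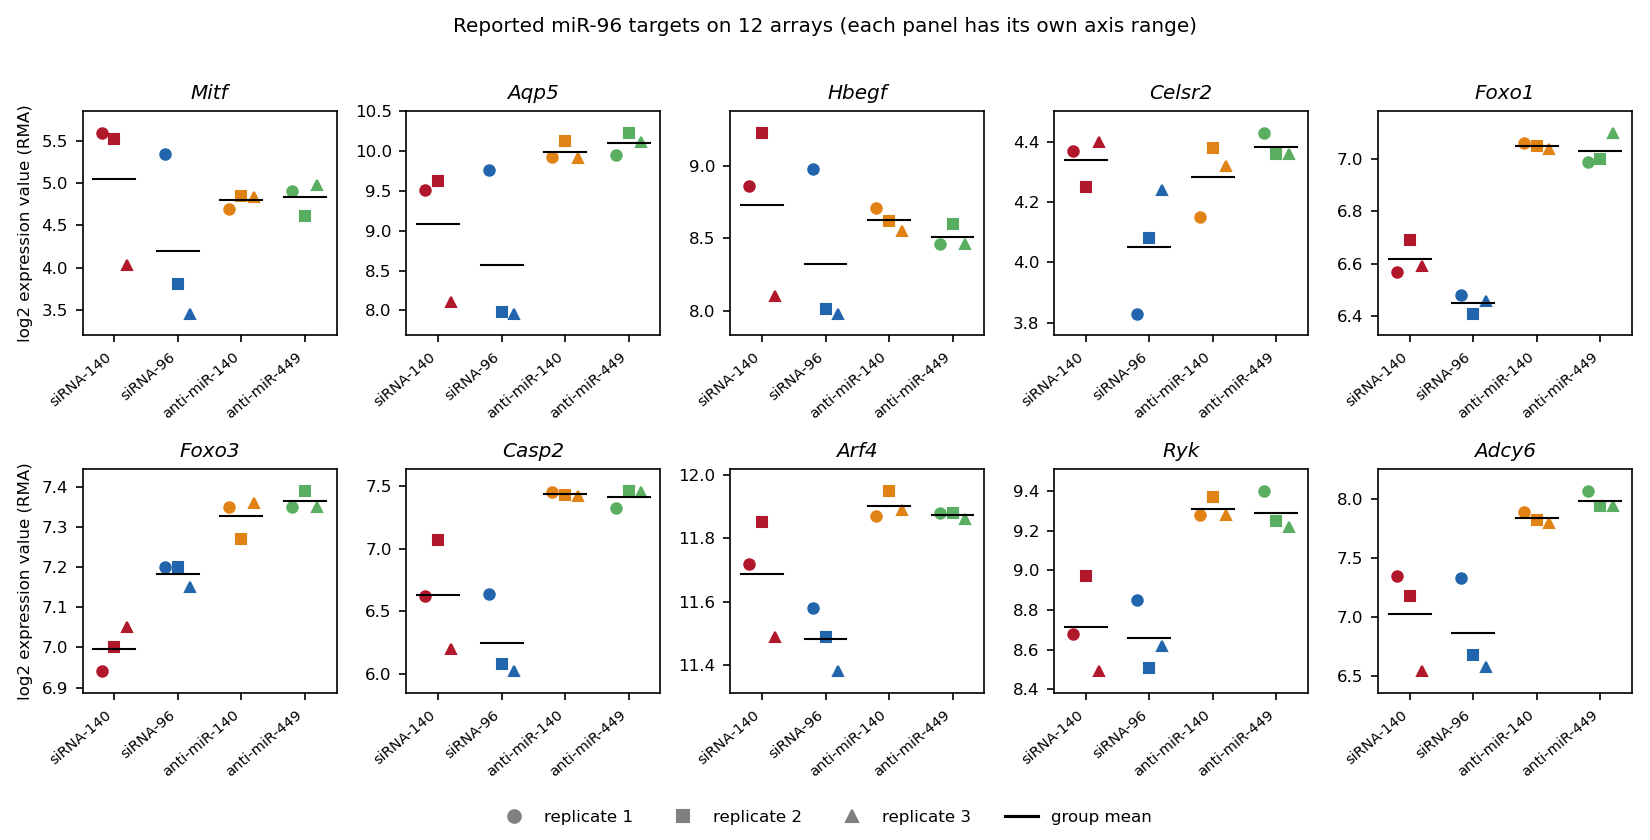
RMA log2 values of the 10 genes, 1 probe set per gene, in the 4 groups of 3 arrays. Symbols mark the replicate and bars the group mean. In Mitf, Aqp5, Hbegf, Casp2, Arf4, Ryk and Adcy6 the triangle of siRNA-140 and the square and triangle of siRNA-96 lie below the other 3 siRNA arrays. The anti-miR arrays lie close together. The vertical axes differ between panels and do not start at 0.

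Hbegf, the only ligand among the 10, encodes a membrane-anchored growth factor that is shed to activate the EGF receptor. The brighter probe set (1418350_at) read 8.86, 9.23 and 8.10 on the siRNA-140 arrays and 8.98, 8.01 and 7.98 on the siRNA-96 arrays. The other (1418349_at) read 7.42, 7.68 and 6.66, then 7.27, 6.67 and 6.54, with the same 3 arrays low. The labelled differences were 0.41 ± 0.27 and 0.43 ± 0.22, both with a limma adjusted p of 0.88. In the reduced fit they were 1.05 ± 0.13 and 0.94 ± 0.12, that is 2.07-fold and 1.93-fold lower with siRNA-96, with limma adjusted p of 0.000188 and 0.00031.

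Casp2 encodes a caspase activated by a complex known as the PIDDosome, and Adcy6 an adenylate cyclase that makes cyclic AMP. Casp2 read 6.62, 7.07 and 6.20 on the siRNA-140 arrays and 6.64, 6.08 and 6.02 on the siRNA-96 arrays. Its difference was 0.38 ± 0.19 (interval -0.03 to 0.80) as labelled and 0.80 ± 0.13 (interval 0.51 to 1.08; limma adjusted p = 0.0021) without the 2 arrays. Adcy6 read 7.35, 7.18 and 6.54 on the siRNA-140 arrays and 7.33, 6.68 and 6.58 on the siRNA-96 arrays. Its difference was 0.16 ± 0.20 as labelled and 0.64 ± 0.11 (interval 0.40 to 0.87; limma adjusted p = 0.00227) without them. Both genes have a single probe set, both had the low arrays in common with Mitf and Aqp5, and the labelled groups of both overlapped. On 4 arrays alone their limma adjusted p-values were 0.0296 and 0.0394.

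Ryk encodes a Wnt receptor related to tyrosine kinases, and its probe sets disagree. The brightest (1451789_a_at) read 8.68, 8.97 and 8.49 on the siRNA-140 arrays and 8.85, 8.51 and 8.62 on the siRNA-96 arrays, and 1426388_s_at read 8.19, 8.25 and 7.79, then 8.12, 7.68 and 7.45. In both the 3 low arrays are again those of Mitf. As labelled they differed by 0.05 ± 0.13 and 0.33 ± 0.16, and neither was called. In the reduced fit the brightest differed by 0.26 ± 0.12 (limma adjusted p = 0.246; 0.515 on 4 arrays) and the other by 0.66 ± 0.12 (limma adjusted p = 0.00295; 0.0376 on 4 arrays). The third Ryk probe set, 1447400_at, differed by -0.04 ± 0.15 as labelled and 0.14 ± 0.17 in the reduced fit.

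Arf4, a small GTPase of the Golgi, read 11.72, 11.85 and 11.49 on the siRNA-140 arrays and 11.58, 11.49 and 11.38 on the siRNA-96 arrays. The low arrays were the same 3, though the span of all 6 was narrow. Its difference was 0.20 ± 0.10 as labelled and 0.35 ± 0.10 (interval 0.13 to 0.57) without the 2 arrays, where the limma adjusted p was 0.0501. The other 3 Arf4 probe sets differed by 0.12 to 0.29 in the reduced fit, none with an adjusted p under 0.05.

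Foxo1 and Foxo3 encode transcription factors held out of the nucleus by insulin and AKT signalling. The brightest Foxo1 probe set (1416983_s_at) read 6.57, 6.69 and 6.59 on the siRNA-140 arrays and 6.48, 6.41 and 6.46 on the siRNA-96 arrays. These groups did not overlap as labelled, and the difference was 0.17 ± 0.08 (interval -0.01 to 0.34; limma adjusted p = 0.88). Among the other 3 probe sets of Foxo1, 1416982_at alone passed the reduced fit (0.46 ± 0.13, limma adjusted p = 0.0386, and 0.124 on 4 arrays). It read 6.20, 6.31 and 5.67 on the siRNA-140 arrays and 6.03, 5.77 and 5.82 on the siRNA-96 arrays, with the low arrays of Mitf. As labelled, 1416981_at differed by -0.11 ± 0.13 (interval -0.39 to 0.18). The reduced-fit differences were 0.20 ± 0.10 (limma adjusted p = 0.309) for the brightest, 0.08 ± 0.13 for 1416981_at and 0.07 ± 0.16 for 1456529_at. In that fit the probe sets of Foxo1 thus differed in size and not in direction.
Foxo3 lay on the other side. Its brightest probe set (1434832_at) read 6.94, 7.0 and 7.05 on the siRNA-140 arrays and 7.2, 7.2 and 7.15 on the siRNA-96 arrays, higher in all 3 siRNA-96 arrays. The difference was -0.19 ± 0.08 (interval -0.36 to -0.01; limma unadjusted p = 0.0366, adjusted p = 0.88), and that of 1434831_a_at was -0.29 ± 0.10 (unadjusted p = 0.01). The Foxo3 differences in the reduced fit were -0.20 ± 0.10 and -0.34 ± 0.12, with limma adjusted p of 0.264 and 0.119, so leaving out the 2 arrays moved Foxo3 little.

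Celsr2, a cadherin of planar cell polarity, was near the median of all probe sets. It read 4.37, 4.25 and 4.40 on the siRNA-140 arrays and 3.83, 4.08 and 4.24 on the siRNA-96 arrays, and the groups were apart only by 4.25 against 4.24. The difference was 0.29 ± 0.11 (interval 0.05 to 0.53; limma unadjusted p = 0.0204, adjusted p = 0.88) as labelled and 0.15 ± 0.11 without the 2 arrays. The second Celsr2 probe set (1422073_a_at), dimmer, differed by -0.01 ± 0.11 as labelled. The brightest probe sets of Celsr2 and Foxo1 split by the labels and not by the arrays that were low for Mitf and Aqp5. Their differences were small, and another Foxo1 probe set (1416982_at) split by those arrays.

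With the groups as labelled, limma called 0 of the 23 member probe sets at an adjusted p under 0.05, where it called 0% of all 45037 probe sets. At an unadjusted p under 0.05 there was 1 higher with siRNA-140 (Celsr2), against 3.21% of all probe sets, and 2 lower (both of Foxo3), against 1.88% of all. The 3 arrays of each group did not overlap for 2 member probe sets higher with siRNA-140 (Celsr2 and Foxo1), against 3.5% of all, and for 2 lower (Foxo3), against 2.6% of all. Over 1 probe set per gene, the median difference of the 10 genes was 0.25 (range -0.19 to 0.84), with 9 of 10 above 0, while the median over all 18193 genes was 0.03, with 57.2% above 0.

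Without the 2 arrays, 8 of 23 member probe sets were higher with siRNA-140, beside 5.13% of all probe sets, and 0 were lower, beside 3.85% of all. The 8 belong to Mitf, Aqp5, Hbegf (2), Casp2, Adcy6, Ryk and Foxo1, and by the brightest probe set 5 of the 10 genes passed. No share over all genes by the brightest probe set is given for this fit, so 5.13% stands beside the 8 of 23 only. On the 4 remaining siRNA arrays alone 7 of 23 were higher, beside 2.02% of all, and 0 were lower, beside 1.85% of all. The median difference of the 10 genes was then 0.49 (range -0.20 to 1.92), against 0.04 over all genes. The members, like the 2 arrays left out, were chosen with results of these data known. These counts are therefore not independent evidence. Only 5 of the 23 member probe sets lay below the median of all probe sets, while the shares over all cover every dim one.
siRNA-140 replicate 3 and siRNA-96 replicates 2 and 3 all lay below the other 3 siRNA arrays in 11 of 23 member probe sets and in 7 of 10 genes by the brightest probe set. That order, which follows the arrays and not the labels, was found in 14.4% of all probe sets, dim ones included. No such share was computed over genes by the brightest probe set, so 14.4% stands beside the 11 of 23 only. The interferon-induced genes lay the other way on the same arrays (Ifit1 read 5.10, 5.58 and 7.90 on the siRNA-140 arrays and 5.20, 9.00 and 9.71 on the siRNA-96 arrays), and their part in the result was not tested.

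**Figure D2:**
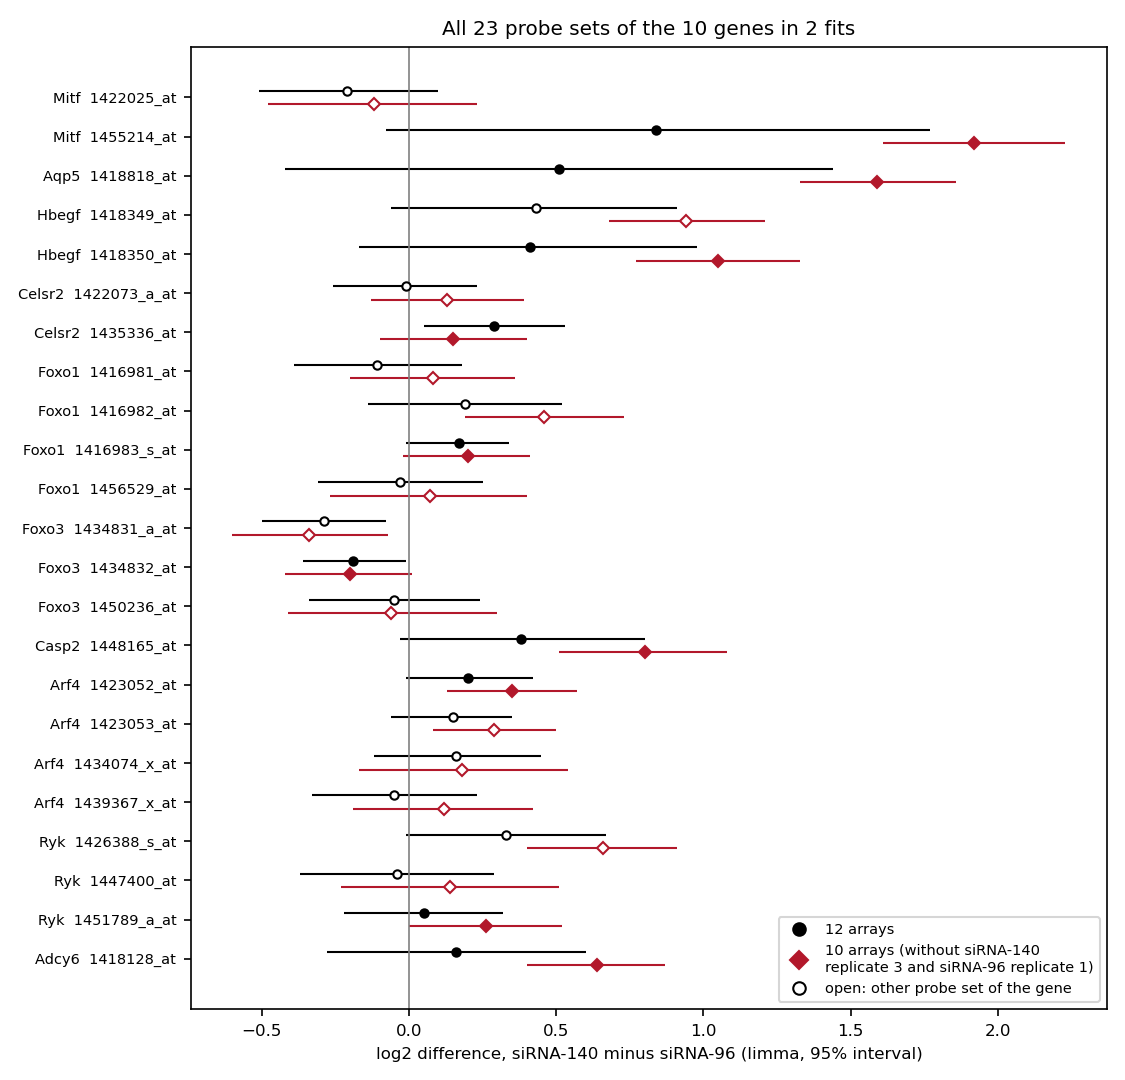
Log2 difference, siRNA-140 minus siRNA-96, with its 95% interval from limma for each of the 23 probe sets. Black circles are the fit of 12 arrays and red diamonds the fit of 10 arrays. Open symbols mark the probe sets that are not the brightest of their gene. Values to the right are lower with siRNA-96. The Mitf interval runs from -0.08 to 1.77 with all arrays and from 1.61 to 2.23 without 2 of them, and both bright Foxo3 probe sets lie to the left.

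The anti-miR experiment showed the same genes where miR-96 was not given. Mitf read 4.69, 4.85 and 4.84 on the anti-miR-140 arrays and 4.90, 4.61 and 4.98 on the anti-miR-449 arrays, and Aqp5 read 9.93, 10.13 and 9.91, then 9.95, 10.23 and 10.11. The groups overlapped for both. The difference, anti-miR-140 minus anti-miR-449, in a limma fit of these 6 arrays alone was -0.04 ± 0.11 (interval -0.28 to 0.21) for Mitf and -0.11 ± 0.10 (interval -0.33 to 0.12) for Aqp5. Over the 10 genes the differences ranged from -0.15 (Adcy6) to 0.12 (Hbegf), with a median of -0.01. Adcy6 was lower in all 3 anti-miR-140 arrays (7.89, 7.82 and 7.80 against 8.07, 7.94 and 7.94), and its limma interval on these 6 arrays was -0.31 to 0.02.
In the fit of 12 arrays, limma called 0 of 23 member probe sets for this comparison, beside 0% of all, and 0 of 23 at an unadjusted p under 0.05, beside 2.27% of all. That fit takes its spread from the siRNA arrays too. Its SE was 0.43 for Mitf and 0.43 for Aqp5, against 0.11 and 0.10 on the 6 anti-miR arrays alone, so these 0 counts say little about small differences. The groups did not overlap for 1 member probe set higher with anti-miR-140 (an Arf4 probe set, 1423053_at), beside 4.06% of all, and 1 lower (Adcy6), beside 4.34% of all.

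The difference between both comparisons was tested as a contrast of its own. With 12 arrays limma called 0 of 23 member probe sets, beside 0% of all, and 2 of 23 had an unadjusted p under 0.05, beside 2.94% of all. Without the 2 arrays 7 of 23 were higher in the siRNA comparison, beside 2.28% of all. For Mitf this difference of differences was 1.96 ± 0.19 (limma adjusted p = 6.37e-05), for Aqp5 1.70 ± 0.16 (4.88e-05), for Hbegf 0.93 ± 0.17 (0.0059), for Adcy6 0.78 ± 0.14 (0.00618) and for Casp2 0.77 ± 0.17 (0.0235).

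Levels were also set beside the median of the same array, as a description across the experiments. Mitf lay 1.60, 1.5 and 1.36 log2 units above the array median in siRNA-140 replicates 1 and 2 and siRNA-96 replicate 1. It lay at 0.08, -0.15 and -0.54 in siRNA-140 replicate 3 and siRNA-96 replicates 2 and 3, and between 0.26 and 0.60 on the 6 anti-miR arrays. The anti-miR arrays thus stood between the high and low siRNA arrays for Mitf. Hbegf had 4.87, 5.21 and 5.0 above the array median on its high siRNA arrays and 4.15, 4.05 and 3.98 on its low ones. The anti-miR arrays had 4.08 to 4.35 for Hbegf, near the low siRNA arrays.
Aqp5 gave another order. On the anti-miR arrays it lay 5.56 to 5.88 above the array median, close to the 5.52, 5.6 and 5.79 of its high siRNA arrays, with the low ones at 4.16, 4.02 and 3.96. Adcy6 had 3.45 to 3.75 on the anti-miR arrays, and 3.36, 3.16 and 3.35 on the high and 2.59, 2.72 and 2.58 on the low siRNA arrays. Casp2 had 3.0 to 3.11 on the anti-miR arrays, 2.63, 3.05 and 2.66 on the high and 2.25, 2.12 and 2.02 on the low siRNA arrays. These distances were not tested across the experiments.
By group mean of the log2 value, Mitf ran from siRNA-140 (5.05 ± 0.88) through anti-miR-449 (4.83 ± 0.19) and anti-miR-140 (4.79 ± 0.09) to siRNA-96 (4.20 ± 1.0; SD, n = 3 each), and neighbours in that order overlapped. Aqp5 ran from anti-miR-449 (10.10 ± 0.14) through anti-miR-140 (9.99 ± 0.12) and siRNA-140 (9.08 ± 0.84) to siRNA-96 (8.57 ± 1.04). On these values only the step from anti-miR-140 to siRNA-140, between experiments with unlike array medians, had no overlap. Relative to the array median the 2 groups overlapped, with 5.56 to 5.81 for anti-miR-140 and 4.16 to 5.6 for siRNA-140. The share of all probe sets without overlap at that step was not computed.

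**Figure D3:**
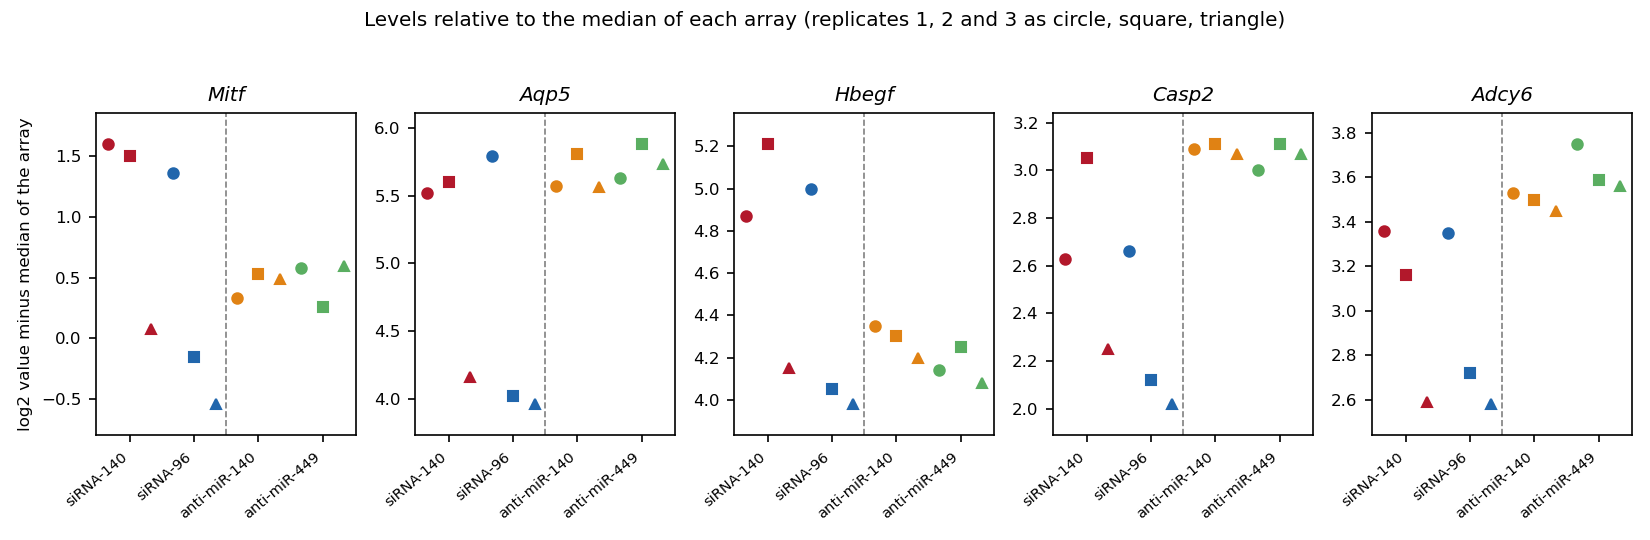
Log2 value minus the median of all probe sets on the same array, for Mitf, Aqp5, Hbegf, Casp2 and Adcy6 on the 12 arrays. The dashed line parts the experiments. The anti-miR arrays lie between the high and the low siRNA arrays for Mitf (0.26 to 0.60), level with the high ones for Aqp5 (5.56 to 5.88) and near the low ones for Hbegf (4.08 to 4.35). The vertical axes differ between panels.

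Of 15 further genes reported as miR-96 targets, 13 were named on the array. As labelled 0 of 13 were called, and without the 2 arrays 4 were higher with siRNA-140 and 1 lower, in a fit that called 5.13% of all probe sets higher and 3.85% lower. Reck, an inhibitor of matrix metalloproteinases, read 7.06, 7.0 and 5.97 on the siRNA-140 arrays and 6.73, 5.99 and 6.08 on the siRNA-96 arrays, a reduced-fit difference of 0.99 ± 0.12 (limma adjusted p = 0.000197). Foxf2, a forkhead factor of mesenchyme, differed by 0.73 ± 0.12 (0.00201), though its other probe set differed by -0.03. The same fit gave the transcriptional repressor gene Zeb1 a difference of 0.48 ± 0.10 (0.00838) and the phosphatase gene Ptpn9 one of 0.35 ± 0.10 (0.0441). Irs1, an adaptor of the insulin receptor, was higher with siRNA-96 (-0.49 ± 0.11, limma adjusted p = 0.00931). Reck and Foxf2 alone passed on 4 arrays. The median over the 13 was 0.17 in the reduced fit, against 0.49 for the 10 genes and 0.04 for all genes.

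Genes related to the members were read from lists that leave the members out. The MiT/TFE relatives of Mitf had 0 of 3 called in either fit, with Tfeb at 0.10 ± 0.09 and Tfec at 0.02 ± 0.09 as labelled. Of 16 genes known as MITF targets, 0 were called as labelled. In the reduced fit, which called 3.85% of all probe sets lower, 1 of them was lower with siRNA-140. It was Hif1a, the oxygen-regulated transcription factor gene (-0.91 ± 0.24, limma adjusted p = 0.0312; 0.125 on 4 arrays), and its other 3 probe sets differed by -0.50 to 0.24. The pigment enzyme genes Tyr (2.37 to 2.77 on the siRNA arrays) and Tyrp1 (2.83 to 2.95) were below the median of all probe sets, as were 11 of the 16. The melanocyte marker list averaged between 3.40 and 3.59 over the siRNA-140 arrays and between 3.44 and 3.53 over the siRNA-96 arrays.

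Among 11 other aquaporins, Aqp1 was higher with siRNA-140 in the reduced fit (0.41 ± 0.11, limma adjusted p = 0.0388, and 0.224 on 4 arrays), and 10 were not called. The differences of the 11 in that fit ranged from -0.78 to 0.41, with a median of 0.05. Among 15 other genes of the EGF family, its receptors and sheddases, Ereg, which encodes another EGF receptor ligand, was higher (0.56 ± 0.13, limma adjusted p = 0.0142; 0.111 on 4 arrays). In the ARF list of 8, Arf2, a close relative of Arf4, read 8.67, 8.89 and 7.41 on the siRNA-140 arrays and 8.67, 7.37 and 6.95 on the siRNA-96 arrays. Its low arrays were those of Mitf. Arf2 differed by 1.62 ± 0.14 in the reduced fit (limma adjusted p = 1.27e-05) and by 0.66 ± 0.39 as labelled. None of these were called as labelled, and the reduced fit called 5.13% of all probe sets higher with siRNA-140.
The reduced fit called 0 of 15 planar polarity genes, 0 of 9 adenylate cyclases and 0 of 9 caspase and PIDDosome genes. By labelled difference the leading ones were Prickle2 (0.20 ± 0.11) and Dvl3 (0.20 ± 0.16), Adcy7 (0.25 ± 0.10) and Adcy9 (0.24 ± 0.13), and Casp12 (-0.23 ± 0.14) and Cradd (0.10 ± 0.15). Foxo4, the other FOXO gene named on the array, differed by 0.28 ± 0.12 in the reduced fit (limma adjusted p = 0.176).
Of 22 genes known as FOXO targets, 0 were called as labelled, and 3 were higher with siRNA-140 in the reduced fit and 3 lower, beside the 5.13% and 3.85% of all probe sets. The higher were Klf2 (0.72 ± 0.16), Sesn3 (0.67 ± 0.15) and Cited2 (0.39 ± 0.11). The lower were Bnip3, a mitochondrial autophagy gene (-1.21 ± 0.10, limma adjusted p = 6.08e-06), Pik3ip1 (-0.95 ± 0.15) and the pro-apoptotic gene Bcl2l11 (-0.52 ± 0.15). The other 4 Bcl2l11 probe sets differed by -0.20 to 0.21 in that fit. On the 4 siRNA arrays alone Klf2, Pik3ip1 and Bnip3 passed, while Sesn3 (limma adjusted p = 0.082), Cited2 (0.224) and Bcl2l11 (0.174) did not. Bnip3 read 7.51, 7.47 and 8.71 on the siRNA-140 arrays and 7.45, 8.71 and 8.68 on the siRNA-96 arrays, so the arrays low for Mitf were high for Bnip3.

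**Figure D4:**
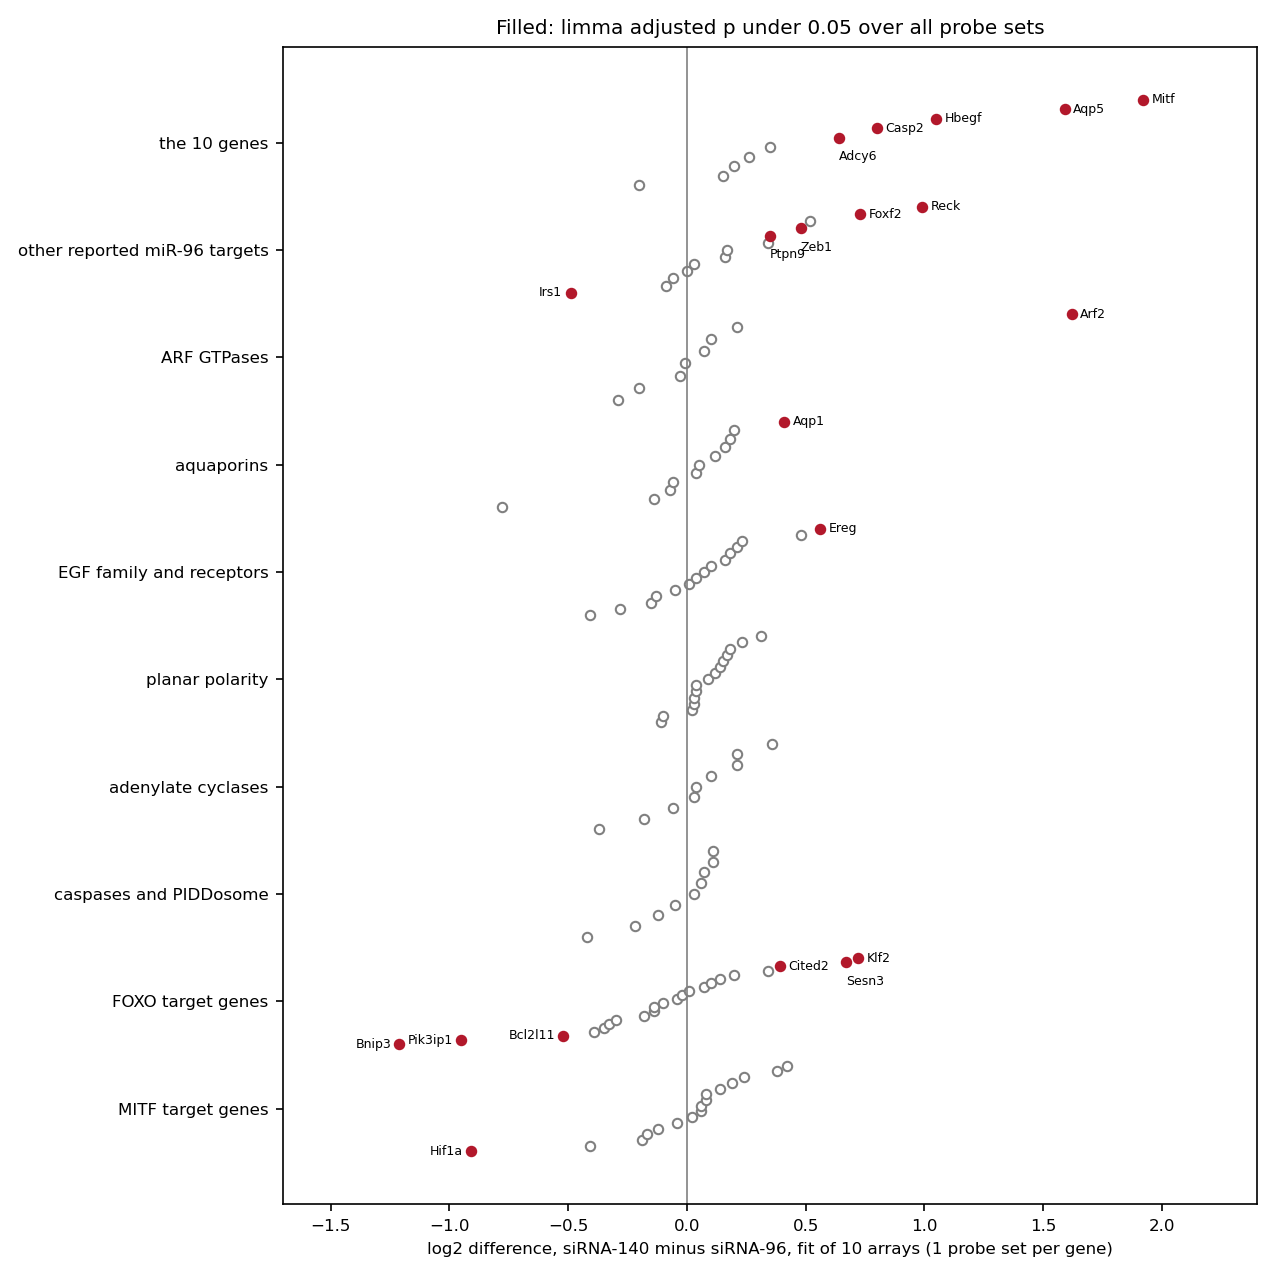
Log2 difference, siRNA-140 minus siRNA-96, in the fit of 10 arrays for the 10 genes and for genes of the related lists, 1 probe set per gene. Filled points have a limma adjusted p under 0.05 over all probe sets and are named. Mitf (1.92), Arf2 (1.62) and Aqp5 (1.59) lie farthest to the right, and Bnip3 (-1.21) farthest to the left. Vertical spread within a list only separates the points.

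The genes whose profile was most like that of Mitf were Cpeb1, Tspan15 and Hspa2. Likeness was the root mean square difference of log2 profiles over 12 arrays, each profile centred within its experiment, among 11310 genes. It was 0.13, 0.14 and 0.15 for these genes, where the median gene stood at 0.62 and a flat profile would stand at 0.63. The genes named were picked as the nearest, so their closeness is not evidence of a link. Cpeb1 read 5.96, 6.05 and 4.55 on the siRNA-140 arrays and 5.77, 4.44 and 4.13 on the siRNA-96 arrays. For Aqp5 the nearest were Zdhhc18 (0.11), Syngr2 (0.12) and Slc35a1 (0.12), where the median gene stood at 0.58, as would a flat profile. Zdhhc18 read 7.81, 7.88 and 6.48, then 7.80, 6.38 and 6.31.

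Promoters were searched because Mitf and Aqp5 had the same low arrays. RefSeq (GRCm38.p6) windows from 250 bases before to 50 after the gene start were at hand for 8 of the 10 genes, 10 windows in all. The E-box CACGTG, a motif that MITF can bind, was found in 1 of them, that of Aqp5, and in 7.15% of all 32851 windows. Neither GTAAACA, a FOXO motif (3.65% of all windows), nor the interferon-stimulated response element (3.44%) was found in the 10 windows on either strand. A match is a description of the letters and not a binding site. With 1 of 10 windows beside 7.15% of all, the match shows no link between Mitf and Aqp5.
The 250 bases before the Aqp5 start, chr15:99590778-99591027 on the plus strand, are shown with the E-box in capitals, which begins 87 bases before the start.
Aqp5 promoter: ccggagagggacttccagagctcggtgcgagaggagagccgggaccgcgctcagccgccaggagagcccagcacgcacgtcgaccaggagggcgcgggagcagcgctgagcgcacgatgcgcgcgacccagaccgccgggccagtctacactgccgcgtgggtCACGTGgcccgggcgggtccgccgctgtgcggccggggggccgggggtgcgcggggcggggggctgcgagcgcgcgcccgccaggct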

How the data were processed

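RNA of 12 C3H10T1/2 samples was read on Affymetrix mouse arrays. The authors deposited log2 values computed by RMA, as the submitters' processing notes name it (per the labels). This method corrects background, brings arrays to a common distribution and summarises probes. Its version and the probe set definition are not given in the sources used here. Of 45101 probe sets, 64 array controls were left out. Of the rest, 34945 had 1 gene symbol in the platform annotation, 932 several and 9160 none. Genes were named only from probe sets with 1 symbol, and a gene is represented by its brightest probe set, by the mean of 12 arrays.

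limma 3.58.1 in R 4.3.3 fitted 4 group means over 12 arrays, with Benjamini-Hochberg adjustment over 45037 probe sets. Each fit took the spread of a probe set from all arrays in that fit, so the fit of 10 arrays also drew on the anti-miR arrays. The method was tested on simulated data. The members and lists were chosen with earlier results of these data known. All 10 members are named. From each related list, the genes called in a fit of siRNA-140 against siRNA-96 are named, or else the 2 with the largest difference. Alternatives were other sets of arrays, the replicate block, quantile or median scaling, dim probe sets left out, other variance models, array weights, other thresholds, other probe set rules, and each array left out in turn.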

Additional observations from a re-analysis of the deposited data

How the results depend on the processing

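With the groups as labelled, 0 of 23 member probe sets were called for siRNA-140 minus siRNA-96. The count was 3 at an unadjusted p under 0.05, 8 on 10 arrays, with siRNA-140 replicate 3 and with siRNA-96 replicate 1 left out, and 7 on the 4 siRNA arrays alone. For the difference between both comparisons it moved from 0 to 2 at an unadjusted p and to 7 on 10 arrays. Leaving out each array in turn gave 0 to 0 called in every comparison. Beside this, for siRNA-140 minus siRNA-96, 0.0799% of all probe sets were called without siRNA-96 replicate 1. The share was 0.0555% without siRNA-96 replicate 2 and 0% without any other array. The difference siRNA-140 minus siRNA-96, with single arrays left out, was 0.47 to 1.41 for Mitf, 0.20 to 1.11 for Aqp5 and 0.16 to 0.73 for Hbegf. It was -0.07 to 0.17 for Ryk and -0.00 to 0.40 for Adcy6. For anti-miR-140 minus anti-miR-449, 0 were called under each alternative. Leaving out arrays gave -0.15 to 0.04 for Mitf, -0.02 to 0.05 for Casp2 and -0.01 to 0.07 for Ryk, while Foxo1 turned to -0.01 with the mean of all its probe sets, and Ryk to -0.00 with quantile normalization and -0.01 with that mean. Of 250 single values for siRNA-140 minus siRNA-96, 235 kept direction and side, 12 newly passed and 3 changed sign. The cause was not tested.

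Same-numbered samples did not all deviate together: their correlations were 0.568, -0.40 and 0.624 in the siRNA experiment and 0.02, 0.204 and -0.137 in the anti-miR experiment, and not every sample was nearest to its own number. The replicate block called 0 member probe sets in each comparison, and probe sets of the whole array with an unadjusted p under 0.05 went from 2292 to 3185 for siRNA-140 minus siRNA-96. At that level the member probe sets went from 3 to 6 of 23 for siRNA-140 minus siRNA-96, from 2 to 3 for the difference between both comparisons, and stayed at 0 for anti-miR-140 minus anti-miR-449.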
